A study of Homo sapiens with 4 samples.

Results

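The PI3K, AKT and mTOR signalling core is described here as 9 genes out of the 20323 gene rows of the deposited files: PIK3CA, AKT1, AKT2, TSC1, TSC2, MTOR, RPTOR, RICTOR and RPS6KB1. Members were found by their symbol, and where several rows carried a symbol the row with the largest summed count was taken. This applied to RPS6KB1, which had 2 rows, the other at 0 in every library. All 9 genes passed the filter on low counts that left 12560 genes for testing. The cells were a subline of HCT-8, an established human line from a colorectal adenocarcinoma, that resists the drug 5-fluorouracil, and their ribosome footprints were sequenced. The OE group was transfected with a METTL14 overexpression plasmid and the NC group with a negative control plasmid, with 2 libraries in each group from experiments that the submitters describe as independent. All cells carried the resistance, and all were given 100 ug/mL cycloheximide, which holds ribosomes on their messages. Neither the promoter of the plasmid nor the clonality of the subline is stated in the labels.

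Growth factor receptors recruit PI3K, a lipid kinase that makes the membrane lipid PIP3. PIP3 brings the kinase AKT to the membrane, and AKT phosphorylates and restrains the TSC complex, which otherwise keeps the small GTPase RHEB inactive. Active RHEB switches on mTORC1, the mTOR complex built on raptor (RPTOR), which phosphorylates S6 kinase (RPS6KB1) and the 4E-BP translation repressors. mTORC2, the complex built on RICTOR, phosphorylates AKT in turn. The pathway links nutrients and growth signals to protein synthesis and is often active in colorectal cancer, where PIK3CA is a common oncogene. METTL14 binds RNA and pairs with METTL3 to form the enzyme that places N6-methyladenosine on messages. Set against NC, the OE libraries ask whether genes of this pathway give more or fewer ribosome footprints when METTL14 is overexpressed.

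Footprints of a gene depend on how much of its message is present and on how densely ribosomes cover it. In bulk cells, fewer cells that carry a message and less of it per cell cannot be told apart. Deposited counts summed to 7742274 and 24392875 in OE replicates 1 and 2, and to 21846389 and 18707758 in NC replicates 1 and 2. Levels are given as CPM, a count scaled to library size. METTL14 had 448 and 91.2 CPM in OE and 44.5 and 47.6 CPM in NC, so both OE libraries lay above both NC libraries and OE replicate 1 far above OE replicate 2. Its log2 fold change was 2.55 (SE 0.81), which did not pass (adjusted p = 0.734, edgeR's quasi-likelihood test). The OE libraries differed from each other more than the NC libraries did, and across tested genes the log2 difference between replicates had an SD of 1.30 in OE and 0.46 in NC. Summed markers of colorectal epithelium, of which 14 of 15 were tested, stood at 6594 and 25078 CPM in OE and at 22748 and 22114 CPM in NC. In OE replicate 1 they were therefore lower than in the other libraries, and their part in the results below was not tested. Markers of endothelium summed to at most 0.410 CPM in any library, with CDH5 and KDR at 0, and those of fibroblasts (THY1 at 0) and leukocytes (CD3E at 0) to between 2.98 and 13.4 CPM. Hepatocyte markers summed to 62.9 and 66.6 CPM in OE and 90.2 and 101 CPM in NC.

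For AKT1, AKT2 and TSC1 each OE library lay above each NC library, and no core gene lay below NC in both. The remaining 6 genes overlapped between the groups. By edgeR's quasi-likelihood test, with p adjusted over all genes by Benjamini-Hochberg, none of the 9 passed, as 0 of 12560 genes passed (0% of those tested) and 691 (5.5%) had an unadjusted p below 0.05, none of them a core gene. DESeq2 called 25 genes (0.199%), with no core gene among them. Both OE libraries lay above both NC libraries for 19.9% of all tested genes and below for 20.4%, so 3 above and 0 below among 9 genes is read against about that share. With libraries scaled by their total counts alone (total-count scaling below), the numbers were 4 above and 0 below, beside 30.2% and 11.8% of all genes. The median log2 fold change of the core genes was 0.30, beside 0.09 over all genes tested. Most of that came from OE replicate 1, where the core had a median log2 difference from the NC mean of 0.55 and 8 of 9 genes lay above both NC libraries. OE replicate 1 was also the library with the fewest counts, and the part of depth was not tested. In OE replicate 2 the median was 0.01, with 4 genes above both NC libraries and 3 below. The shares of all genes placed so by a single OE library were 46.7% above and 45.5% below for OE replicate 1, and 42.8% above and 42.5% below for OE replicate 2.

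**Figure D1:**
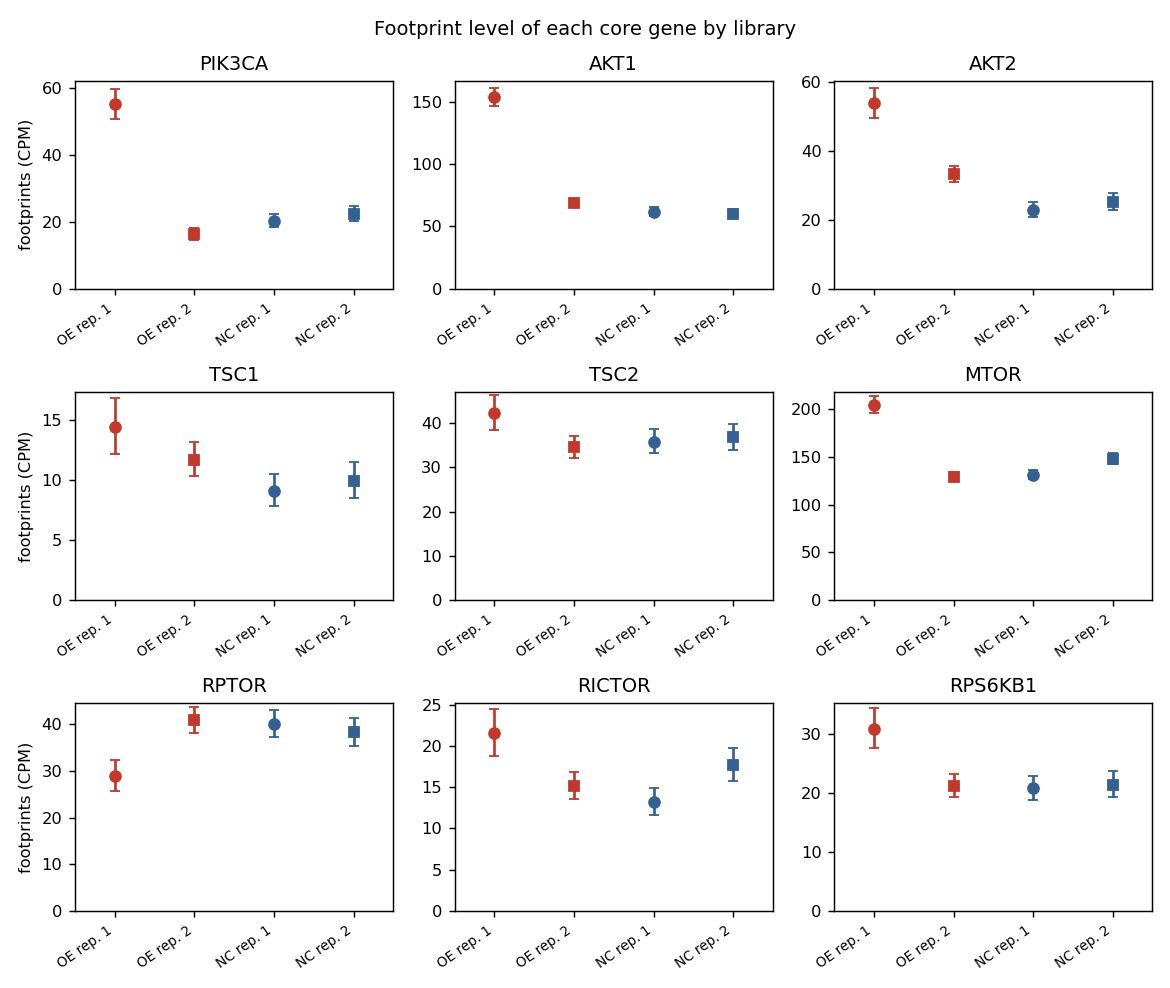
Footprint level of each of the 9 core genes in CPM (scaled counts, linear axis from 0) in the 4 libraries, with red for OE, blue for NC, circles for replicate 1 and squares for replicate 2. Bars are exact Poisson 95% intervals and hold counting error alone. OE replicate 1 is above both NC libraries in every panel except RPTOR, where it is below.

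PIK3CA encodes p110 alpha, the catalytic subunit of PI3K that carries hotspot mutations in many carcinomas. It had 55.0 and 16.2 CPM in OE, against 20.2 and 22.4 CPM in NC. The OE libraries lay on opposite sides of NC, and their exact Poisson intervals, 50.6 to 59.7 and 14.6 to 18.0 CPM, did not meet. With a log2 fold change of 0.74 (SE 0.61, adjusted p = 0.758 by edgeR's quasi-likelihood test), its 95% interval ran from -0.82 to 2.29. The value was 1.33 from OE replicate 1 alone against NC and -0.39 from OE replicate 2 alone. PIK3CA showed the widest gap between OE replicates among the 9 core genes, at 1.75 on the log2 scale.

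AKT1 and AKT2 encode the AKT kinases, closely related enzymes of which AKT1 is tied mainly to growth and survival and AKT2 to insulin signalling. AKT1 had 154 and 68.7 CPM in OE, against 61.6 and 60.03 CPM in NC. AKT2 had 53.7 and 33.1 CPM in OE, against 22.9 and 25.1 CPM in NC. Both genes lay above NC in both OE libraries, AKT1 by little in OE replicate 2. The log2 fold changes were 0.87 (SE 0.47) for AKT1 and 0.85 (SE 0.36) for AKT2, each with adjusted p = 0.734 (edgeR's quasi-likelihood test). AKT2 had the smallest unadjusted p of the 9 genes, 0.0612, and a 95% interval from -0.06 to 1.77. From OE replicate 2 alone, which rests on the spread of the NC libraries, AKT2 had 0.47 (adjusted p = 0.0284) and AKT1 had 0.18 (adjusted p = 0.438), in a fit that called 34.1% of all genes. From OE replicate 1 alone they had 1.12 (adjusted p = 1.28e-06) and 1.30 (adjusted p = 5.52e-09), in a fit that called 60.9% of all genes. The deposited counts of OE replicate 2 held a fraction for these paralogues and for no other core gene, 1519.64 for AKT1 and 733.36 for AKT2, as estimated counts do where a read is divided between genes.

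TSC1 (hamartin) and TSC2 (tuberin) form the TSC complex, in which TSC2 is the part that inactivates RHEB and TSC1 holds TSC2 stable. TSC1 had 14.4 and 11.7 CPM in OE, against 9.06 and 9.91 CPM in NC. Both OE libraries were higher, though the Poisson interval of OE replicate 2, 10.3 to 13.2 CPM, met those of NC, which reached 10.5 and 11.5 CPM. Its log2 fold change was 0.45 (SE 0.34, adjusted p = 0.741 by edgeR's quasi-likelihood test). TSC2 had 42.3 and 34.6 CPM in OE, against 35.9 and 36.8 CPM in NC, with the OE libraries on either side of NC. TSC2 had the log2 fold change closest to 0 of the 9 genes, 0.08 (SE 0.29, adjusted p = 0.944 by edgeR's quasi-likelihood test), with a 95% interval from -0.67 to 0.83.

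MTOR, the kinase shared by both complexes, had 205 and 129 CPM in OE, against 131 and 148 CPM in NC. OE replicate 1 was above NC and OE replicate 2 lay just below its lower library. The log2 fold change of MTOR was 0.26 (SE 0.40), with a 95% interval from -0.75 to 1.27. RPTOR, the scaffold that brings substrates to mTORC1, had 28.9 and 40.9 CPM in OE, against 40.1 and 38.3 CPM in NC. It was the core gene whose level in OE replicate 1 was below both NC libraries, while in OE replicate 2 it was above both by less than the counting error. The log2 fold change of RPTOR, -0.17 (SE 0.32), turned to 0.11 under total-count scaling. RICTOR, the defining subunit of mTORC2, had 21.5 and 15.1 CPM in OE, against 13.1 and 17.6 CPM in NC. The NC libraries themselves differed by 0.42 on the log2 scale for RICTOR, the largest NC difference among the 9 genes, and its log2 fold change was 0.25 (SE 0.36). RPS6KB1, the S6 kinase that mTORC1 activates, had 30.9 and 21.3 CPM in OE, against 20.9 and 21.5 CPM in NC. OE replicate 2 thus lay between the NC libraries and OE replicate 1 above them, for a log2 fold change of 0.30 (SE 0.32). By edgeR's quasi-likelihood test these 4 genes had adjusted p between 0.807 and 0.890.

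**Figure D2:**
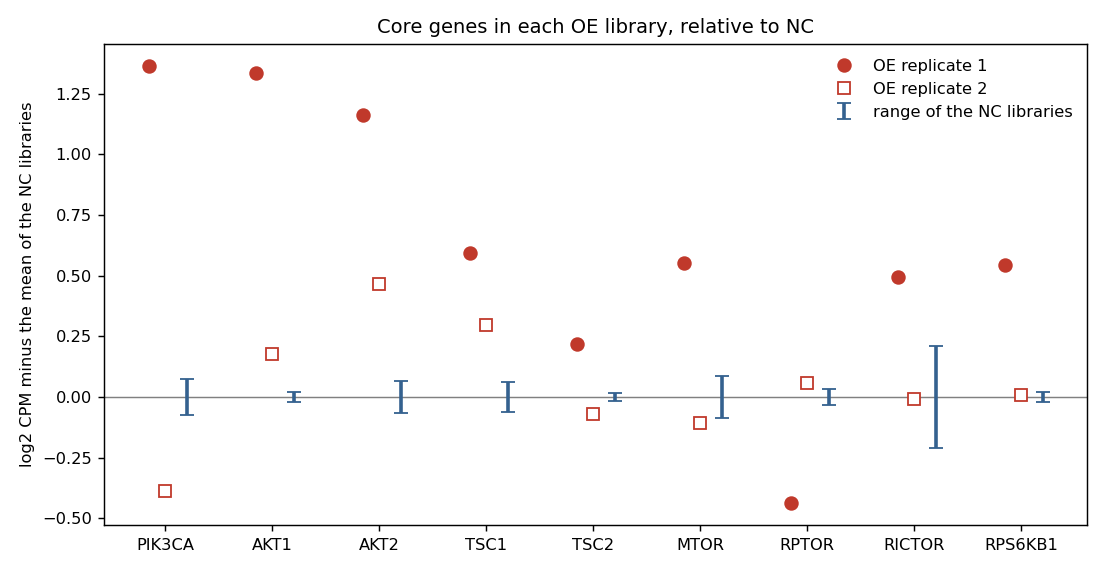
Log2 CPM of each core gene in OE replicate 1 (filled circles) and OE replicate 2 (open squares) minus the mean of the NC libraries, with blue bars for the range of the 2 NC libraries. OE replicate 1 lies between -0.44 (RPTOR) and 1.36 (PIK3CA), and OE replicate 2 between -0.39 (PIK3CA) and 0.47 (AKT2).

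The 9 genes did not share a single profile across the 4 libraries. Their mean profile, after each gene was centred on its own mean log2 CPM, was 0.47 and -0.13 in OE and -0.23 and -0.12 in NC, so OE replicate 1 stood apart from the other 3 libraries. RPS6KB1 and MTOR were nearest to this mean profile, with root mean square distances of 0.05 and 0.07 on the log2 scale, and PIK3CA and RPTOR were farthest, with 0.41 and 0.48. Among 8970 other genes with at least 10 CPM on average, the nearest to the mean profile were NCKAP1, TBC1D9B, CHPT1, ZNF394 and NDE1, at distances from 0.0042 to 0.022. NCKAP1 encodes a subunit of the WAVE actin regulator and NDE1 a partner of dynein. The nearest gene to AKT1 was MTA1 (0.015), to AKT2 BORCS8 (0.033), to PIK3CA B3GALNT2 (0.024), to TSC1 ILKAP (0.012) and to TSC2 COPS7B (0.012). MTOR was nearest to IRX5 (0.027), RPTOR to PPP4C (0.010), RICTOR to NOC3L (0.032) and RPS6KB1 to OXR1 (0.012). With 4 libraries and this many candidates, near matches are common, and these are a description of likeness only.

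**Figure D3:**
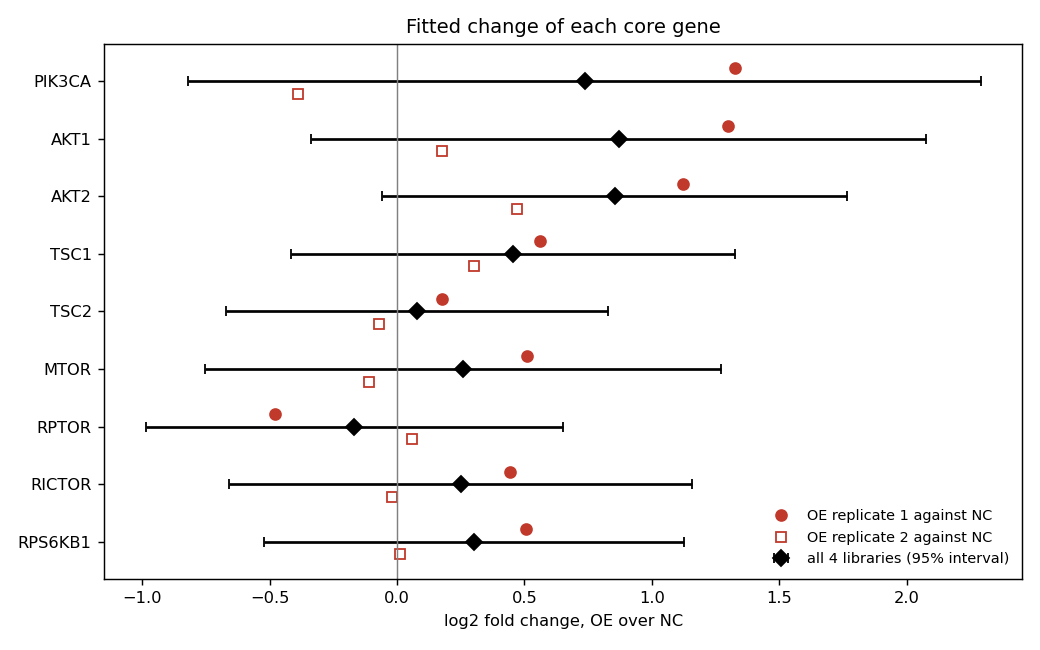
Log2 fold change of OE over NC for each core gene from all 4 libraries (black diamonds with 95% intervals of the quasi-likelihood fit), from OE replicate 1 against NC (red circles) and from OE replicate 2 against NC (open red squares). All 9 intervals include 0, and AKT1, AKT2, TSC1 and RPS6KB1 have all 3 values above 0.

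Ratios of 2 core genes within a library do not change with a factor applied to the whole library, though they do with a scaling that depends on level. The ratio of TSC2 to TSC1 counts was 2.94 and 2.97 in OE, against 3.96 and 3.72 in NC. Both OE libraries had a lower ratio than both NC libraries. Replicates lay close together, differing by less than the counting error given below, so their SD is no measure of precision. The difference was -0.38 on the log2 scale, with means of 1.56 ± 0.01 in OE and 1.94 ± 0.06 in NC (SD, n = 2 each). Exact binomial 95% intervals, of counting error alone, ran from 2.44 to 3.56 and from 2.57 to 3.43 in OE, and from 3.35 to 4.70 and from 3.13 to 4.43 in NC, so those of the groups met in part. A two-sided exact permutation test gave p = 0.333, the smallest that 2 libraries against 2 allow. With any 1 library left out the difference lay between -0.42 and -0.33. After cyclic loess scaling, which depends on level, it was -0.15.

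The other ratios of core genes overlapped between the groups. AKT2 over AKT1 was 0.349 and 0.482 in OE, against 0.371 and 0.418 in NC, so the OE libraries enclosed the NC libraries (exact permutation p = 1), and the log2 difference of 0.06 became -0.21 after cyclic loess scaling. RICTOR over RPTOR, which sets mTORC2 against mTORC1, was 0.743 and 0.371 in OE, against 0.327 and 0.460 in NC (exact permutation p = 0.667). The high value belonged to OE replicate 1, where the RPTOR level was low, and the log2 difference between groups went from 0.43 over all libraries to -0.07 without that library and 0.94 without OE replicate 2. MLST8, which encodes the small WD-repeat subunit of both mTOR complexes, was set against MTOR after its values were seen. Its count ratio to MTOR was 0.504 and 0.705 in OE, against 0.412 and 0.321 in NC. In both OE libraries there were more MLST8 footprints for each MTOR footprint than in either NC library. As the pair was chosen with its values seen, this separation is a description only, and no permutation test is given for it. The exact binomial intervals of the groups did not meet, but they hold counting error alone, and the OE replicates differed by more than that across genes.

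**Figure D4:**
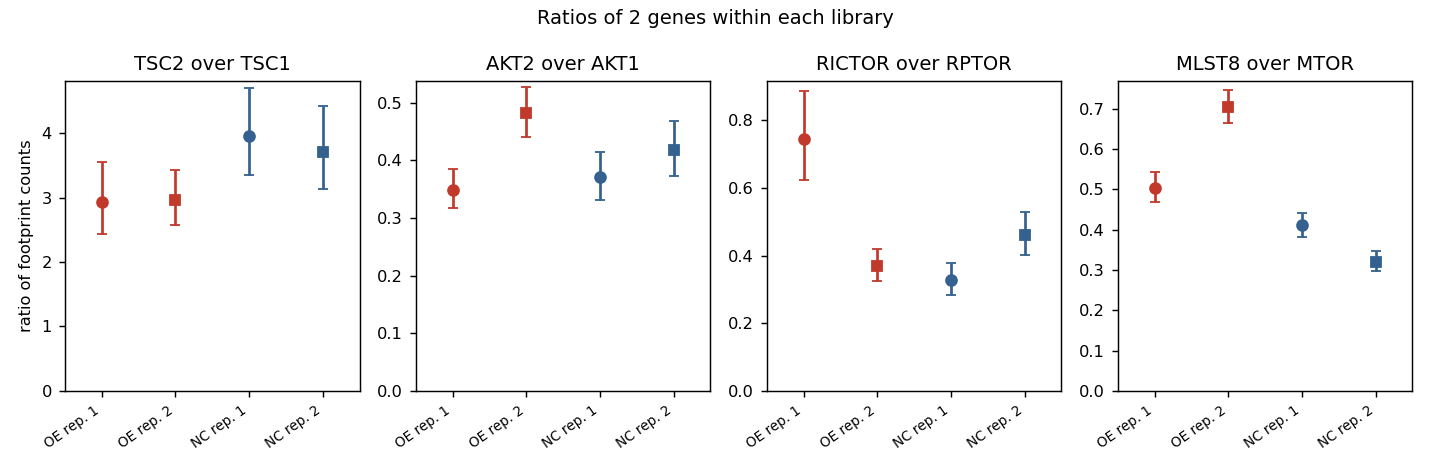
Ratio of the footprint counts of 2 genes within each library (linear axes from 0), with OE in red and NC in blue, and exact binomial 95% intervals that cover counting error only. TSC2 over TSC1 is lower and MLST8 over MTOR higher in each OE library than in each NC library, while the other ratios overlap.

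The rest of the pathway was described from a list of 114 genes in 9 roles, of which 107 were tested. By edgeR's quasi-likelihood test 0 passed after adjustment over all genes, while 5 (4.67%) had an unadjusted p below 0.05, near the 5.5% of all genes. Both OE libraries lay above both NC libraries for 34 of the 107 genes and below for 13, beside the 19.9% and 20.4% of all genes given above. The median log2 fold change was 0.24, beside 0.09 for all genes. These counts and those by role use the same scaling as the 19.9% and 20.4%, and are read against those shares. Under total-count scaling the shares of all genes were 30.2% and 11.8%, and no pathway counts are given for it. The genes of the list that are described by role, IRS1 aside, had an adjusted p of at least 0.734 by edgeR's quasi-likelihood test over all 4 libraries.

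Receptors and adaptors had a median log2 fold change of -0.32 over 10 tested genes, of which 5 lay lower in both OE libraries and 0 higher (20.4% and 19.9% of all genes). Relative to the NC mean, OE replicates 1 and 2 had medians of -0.29 and -0.42 for this group. The median fold change was 0.05 under total-count scaling. The epidermal growth factor receptor EGFR had 84.7 and 71.7 CPM in OE, against 174 and 188 CPM in NC, a log2 fold change of -1.21 (SE 0.34). ERBB3, a receptor that recruits PI3K directly, had 107 and 72.3 CPM in OE, against 176 and 183 CPM in NC. For EGFR, replicate 1 minus replicate 2 was 0.24 in OE and -0.11 in NC on the log2 scale. Both receptors had a log2 fold change below 0 under each of the 4 scalings tried. The adaptors GRB10 and GAB1 had 0.72 and 0.58 and overlapped between the groups. The adaptor gene IRS1 had 0 and 1 counts in OE and 1 and 4 counts in NC and was not tested.

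Other PI3K subunits and regulators had a median of 0.24 over 11 tested genes, with 3 higher and 2 lower in both OE libraries (19.9% and 20.4% of all genes). PIK3R3, a regulatory subunit, had 7.23 and 8.41 CPM in OE, against 3.97 and 4.87 CPM in NC, and PIK3C2B, a class II PI3K, had 23.8 and 25.5 CPM in OE, against 18.9 and 17.8 CPM in NC. PIK3C3, the class III enzyme of autophagy and endosomes, had a log2 fold change of -0.56, and PIK3IP1, an inhibitor of PI3K, had -1.36 at no more than 2.01 CPM in any library. Of the 8 phosphatases tested, 5 lay higher in both OE libraries and 0 lower (19.9% and 20.4% of all genes), with a median of 0.70, and OE replicates 1 and 2 had medians of 1.14 and 0.11 relative to the NC mean. INPPL1 (SHIP2), which removes a phosphate from PIP3, had 83.7 and 46.8 CPM in OE, against 40.5 and 32.2 CPM in NC. PHLPP2, which dephosphorylates AKT, had 21.4 and 15.7 CPM in OE, against 9.37 and 10.9 CPM in NC, while its relative PHLPP1 had -0.12 and overlapped (0.19 under total-count scaling).

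The 5 kinases related to AKT had a median of 0.86, with 3 higher and 0 lower in both OE libraries (19.9% and 20.4% of all genes). Of these, PDPK1, which phosphorylates AKT in its activation loop, had 29.98 and 37.3 CPM in OE, against 26.1 and 19.9 CPM in NC. SGK3 had a log2 fold change of 0.86 and SGK1 had -0.34, at 17.4 and 42.3 CPM in OE and 36.6 and 39.1 CPM in NC. The 9 AKT substrates had a median of 0.27, with 3 higher and 0 lower in both OE libraries (19.9% and 20.4% of all genes). Among them GSK3A, a kinase of glycogen synthase that AKT inhibits, had 35.03 and 36.2 CPM in OE, against 19.1 and 16.9 CPM in NC. The log2 fold change of GSK3A, 0.98 (SE 0.28), was even across replicates in both groups. The forkhead factor FOXO4 had 1.05 and FOXO1 had -0.10 (0.17 under total-count scaling), and TBC1D4, a Rab regulator of glucose uptake, had -0.04 (0.31 under total-count scaling).

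Genes that control TSC and RHEB had a median of 0.16 over 12 tested, which was -0.06 after cyclic loess scaling. In both OE libraries 3 lay higher and 1 lower, beside 19.9% and 20.4% of all genes. The stress-induced mTORC1 inhibitor DDIT4 had 247 and 39.0 CPM in OE, against 48.3 and 34.0 CPM in NC. STK11 (LKB1), the kinase that activates AMPK, had 89.0 and 14.5 CPM in OE, against 19.4 and 19.2 CPM in NC. Both were therefore high in OE replicate 1 alone. The AMPK subunits PRKAA1 and PRKAG1 had -0.30 and -0.17, which turned to 0.05 and 0.01 under total-count scaling.

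Among the 9 further subunits and assembly factors of the mTOR complexes, 5 lay higher in both OE libraries and 0 lower (19.9% and 20.4% of all genes), with a median of 0.45. Here OE replicates 1 and 2 had medians of 0.11 and 0.35 relative to the NC mean. MLST8 had 103 and 91.2 CPM in OE, against 54.1 and 47.5 CPM in NC, a log2 fold change of 0.94 (SE 0.31). MAPKAP1 (SIN1), an mTORC2 subunit, had 38.1 and 18.7 CPM in OE, against 15.04 and 13.9 CPM in NC. The inhibitory subunit DEPTOR had -0.25 (0.15 under total-count scaling) and the RICTOR partner PRR5L had -0.53, and both overlapped between the groups. The amino acid arm, which brings mTORC1 to the lysosome, had a median of 0.33 over 29 tested genes. In both OE libraries 9 lay higher and 2 lower, beside 19.9% and 20.4% of all genes with the same scaling. Total-count scaling, with shares of 30.2% and 11.8%, was not used for these counts. WDR59 of the GATOR2 complex had 55.6 and 24.5 CPM in OE, against 16.8 and 21.0 CPM in NC, and DEPDC5 of GATOR1 had 26.6 and 16.5 CPM in OE, against 11.1 and 13.7 CPM in NC. The Ragulator subunits LAMTOR4 and LAMTOR1 had -0.40 and -0.29, the second turning to 0.01 under total-count scaling.

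Outputs of mTORC1 had a median of 0.01 over 14 tested genes, which was 0.30 after cyclic loess scaling and 0.43 under total-count scaling. In both OE libraries 3 lay higher and 3 lower, near the 19.9% and 20.4% of all genes. EIF4EBP1, the translation repressor that mTORC1 inactivates, had 34.5 and 24.7 CPM in OE, against 16.2 and 16.004 CPM in NC, a log2 fold change of 0.88 (SE 0.32). EIF4E, the cap-binding protein that it holds, had 62.1 and 142 CPM in OE, against 141 and 158 CPM in NC. RPS6KB2, the relative of RPS6KB1, had 48.2 and 11.9 CPM in OE, against 11.6 and 10.1 CPM in NC, and PDCD4, a translation repressor that S6 kinase marks for destruction, had 28.5 and 27.9 CPM in OE, against 39.9 and 48.0 CPM in NC. The log2 fold change of EIF4EBP1 was above 0 and that of PDCD4 below 0 under each of the 4 scalings tried.

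**Figure D5:**
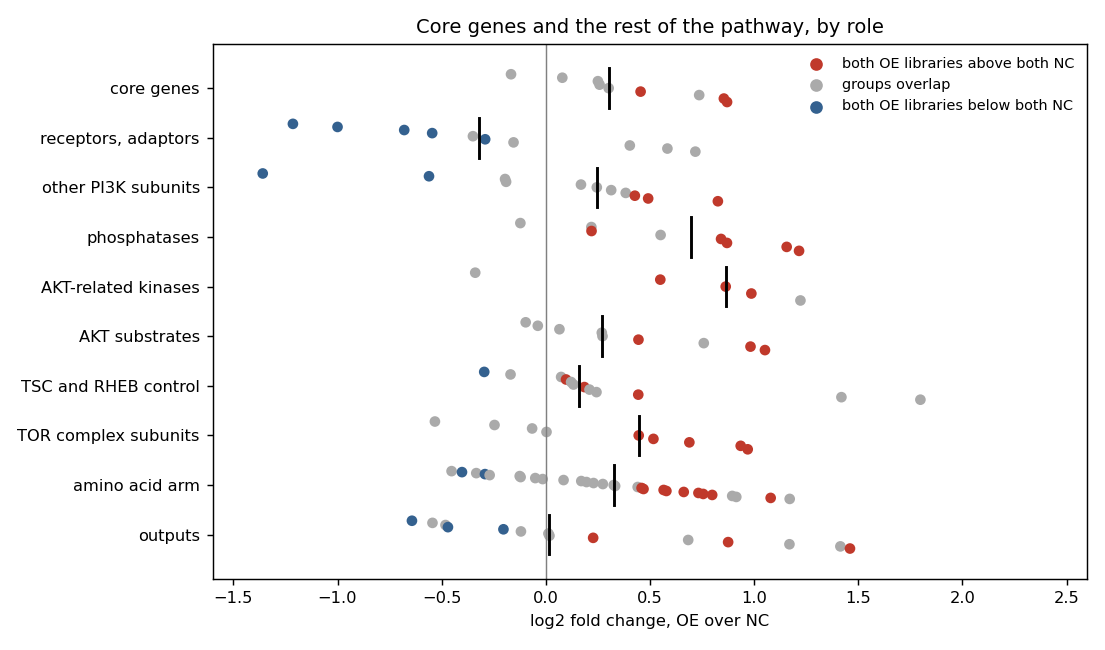
Log2 fold change of OE over NC for the 9 core genes and for the 107 tested genes of the rest of the pathway, by role, with a black line at each median. Red points had both OE libraries above both NC libraries, blue points both below, and grey points overlapped, and no gene passed the adjusted test.

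mTORC1 controls most strongly the messages that begin with a 5′ terminal oligopyrimidine (TOP) tract, a C followed by a run of C or T letters at the transcription start. The start sites of 5 core genes are shown with that of RPS6, the ribosomal protein that S6 kinase phosphorylates, whose message is a TOP message, so that the first transcribed letters can be compared. Each line gives 15 bases before and 15 bases from the annotated start that lies farthest upstream, on the strand of the gene (RefSeq, GRCh38.p14), with the first 5 transcribed bases in capitals.
AKT1: agagggcgggccggcGGCGGcggcaggacc
AKT2: ggcggggggggccgcGCCGTgctagccgtt
TSC1: gacgggggaggtgctGTACGtccaagatgg
MTOR: aaccctccttccctcGCTCCcggcttagag
RPTOR: cgcggtgcattctggGTCCTggcaatatgg
RPS6: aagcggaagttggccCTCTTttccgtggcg
These lie at chr14:104795734-104795763, chr19:40285331-40285360, chr9:132944602-132944631, chr1:11262537-11262566, chr17:80544823-80544852 and chr9:19380222-19380251, of which RPTOR is on the plus strand and the rest on the minus strand. A C followed by 4 letters that are each C or T, searched on the transcribed strand at the annotated start only, was found in 0 of the 9 core genes and in 4.59% of 15843 protein-coding genes. RPS6 held it, in a run of 9 C or T letters. PIK3CA began with A, and the other 8 core genes with G. Annotated starts need not be those used in HCT-8 cells, and a missing match says only that these letters are not at that position. RPS6 had 627 and 1632 CPM in OE, against 1313 and 1142 CPM in NC, on opposite sides of NC in the OE replicates as PIK3CA was, but with OE replicate 2 as the higher library.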

How the data were processed

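Each library has a file in which the authors deposited estimated counts by Ensembl gene ID, in a column named as a count per the file headers. A share of 13.8% to 14.7% of values held a fraction, so they were rounded to whole numbers. Per the submitters' processing notes, RSEM, StringTie, HISAT2, Bowtie2 and fastp were used with the build hg18. Their versions and order, the annotation and the strand setting are not stated, so reads of paralogues and overlapping genes may be shared. Files give no gene lengths, so levels are not compared between genes.

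In R 4.3.3, genes were filtered with edgeR 4.0.16 (filterByExpr, minimum count 10), scaled by TMM (factors 1.36 and 0.907 for OE, 0.889 and 0.912 for NC) and tested by edgeR's quasi-likelihood test with a term for the group alone; p-values of all 12560 genes were adjusted by Benjamini-Hochberg and 0.05 was the threshold. The biological coefficient of variation was 0.423. Data were simulated over 12382 genes, with the fitted spread of each gene taken as the same in both groups. There 26.5% of 4-fold and 85.9% of 16-fold changes were called, and so were 7 unchanged genes. In the real data the OE replicates differed more than the NC replicates, so these rates need not hold for them. A count of 3, about the one-sided 95% upper limit for a count of 0, equals 0.286 and 0.136 CPM in OE and 0.154 and 0.176 CPM in NC. The exact Poisson intervals are two-sided and reach higher at a count of 0. Intervals cover the counting error of reads only. Reads carry no molecular identifiers, so copies of a molecule cannot be told from separate molecules, and the intervals may be too narrow. Counts of replicate pairs differed by a chi-square per degree of freedom of 344.5 in OE and 13.2 in NC, more than sampling noise gives.

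Members and lists were chosen with earlier results of these data known. Genes of the pathway list were named by rule: in each role, those past the threshold and the 2 with the smallest p in each direction. IRS1 and RPS6 were named after their values were seen. Some genes of the list are not reported here. Nearest genes were ranked by root mean square distance of centred log2 CPM (prior count 2). Alternatives were run with DESeq2 1.42.0 and limma 3.58.1, other scalings, filters, a replicate block and libraries left out. Start sites were taken from a RefSeq table (GRCh38.p14), matched by symbol for all 9 genes.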

Additional observations from a re-analysis of the deposited data

How the results depend on the processing

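None of the core genes was called in a fit over all 4 libraries (0 of 90 values). The smallest adjusted p was 0.604, by edgeR's quasi-likelihood test with library totals. The 90 values include those of the main fit, and all come from the same libraries. Direction was kept in 89 of 90, the exception being RPTOR with library totals as the only scaling (0.11). That scaling moved the median of all genes to 0.40 and those of the core and of the pathway list to 0.68 and 0.57, and the core stood 0.28 above all genes, beside 0.21 with TMM. It left 4 core genes above NC in both OE libraries, beside 30.2% of all genes. Over all genes, 0 were called by edgeR's quasi-likelihood test, 25 by DESeq2, 29 by edgeR's likelihood ratio test and 24 with the replicate block, under which the core median was 0.28. No pairing of same-numbered libraries is stated. The log2 differences of replicate 1 from replicate 2 in OE and in NC correlated at -0.10 across genes. As OE replicate 1 stood apart from the other libraries, this value cannot tell whether the libraries were paired. METTL14 was called by DESeq2 (2.54, adjusted p = 0.0495). Leaving out each library in turn gave 7 to 7969 called genes, core medians of 0.012 to 0.51 and pathway medians of 0.10 to 0.26, 3 to 8 core genes above NC and 0 to 3 below. Within-library differences then ranged from -0.17 to 0.29 for AKT2 over AKT1, from -0.07 to 0.94 for RICTOR over RPTOR and from -0.42 to -0.33 for TSC2 over TSC1. Cyclic loess moved the first to -0.21 and the last to -0.15. Without OE replicate 1, PIK3CA (-0.39), TSC2 (-0.070), MTOR (-0.11), RICTOR (-0.018) and RPTOR (0.061) changed sign, with TSC2 at 0.18 and RICTOR at 0.45 without OE replicate 2. Values of the other core genes without OE replicate 2 were 1.33 for PIK3CA, 1.30 for AKT1, 1.12 for AKT2 and 0.56 for TSC1. They were 0.51 each for MTOR and RPS6KB1 and -0.48 for RPTOR. The genes that kept their sign without OE replicate 1 were AKT2 (0.47), TSC1 (0.30), AKT1 (0.18) and RPS6KB1 (0.012). Each of these fits rests on a single OE library, so only sizes are given here. The causes were not tested. The counts of non-overlapping core genes under other settings and the loess ratios were added after seeing the data. At 151 to 258 counts, TSC1 limits the precision of the TSC ratio.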
